A study of Sus scrofa with 21 samples.

Results

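The genes described here are 10 growth regulators of the fetus and newborn: DLK1, GRB10, PLAGL1, PEG3, MEST, NNAT, PEG10, NDN, IGF2BP1 and IGF2BP3. They were taken by name from the 25880 genes of the deposited pig heart count table, where 8 of the 10 carry their symbol and PEG3 and IGF2BP1 were matched by gene ID through a table of reference names. Total RNA was sequenced from heart tissue at the border zone of ischaemia or its counterpart of 21 pigs, 1 pig to a library. Myocardial infarction (MI) was made by tying off the left descending coronary artery permanently on postnatal day 1, and these hearts were collected on day 7 (3 pigs), day 14 (3 pigs) and day 28 (2 pigs). Hearts without infarction were collected on day 1 (2 pigs), day 3 (2 pigs), day 7 (3 pigs), day 14 (3 pigs) and day 28 (3 pigs). Titles call these pigs naive, but the treatment protocol gives the controls a sham operation without ligation, and the sources used here do not settle which holds; they are called naive below. All pigs came from 1 farm, were hand-fed on bovine colostrum and then milk, and were kept in a warmed incubator; no genotype is given, and of sex, litter and library batch the sources used here say nothing.

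Imprinted genes are transcribed mainly from the copy inherited from 1 parent, and many of them set the pace of fetal growth. In mouse and human, DLK1, MEST, PLAGL1, PEG3, NNAT, PEG10 and NDN are expressed mainly from the paternal copy, and GRB10 from the maternal copy in most tissues of the mouse. IGF2BP1 and IGF2BP3 are not imprinted; they are fetal RNA-binding proteins that bind the messenger RNA of the imprinted growth factor IGF2. Mouse studies describe a network of imprinted genes, with PLAGL1 among its regulators, that is switched down in many organs after birth as growth slows. The counts carry no allele, so imprinting itself was not measured.

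Sequence upstream of the annotated gene start is shown for 3 members because the results return to them. NNAT is the 1 member that edgeR called with infarction, over the mean of days 7, 14 and 28. PEG10 and PEG3 each have a neighbour on the opposite strand that starts close by. PEG3 holds a match to a known binding sequence of a fellow member, whose binding was not measured here. Each line is the 200 bases before the RefSeq gene start in the pig genome Sscrofa11.1, written 5′ to 3′ on the gene's own strand. Capitals mark CG dinucleotides, the sites whose methylation marks imprinted genes. The windows are chr17:40625790-40625989 on the plus strand for NNAT, chr9:74473921-74474120 on the plus strand for PEG10 and chr6:61307789-61307988 on the minus strand for PEG3.
NNAT: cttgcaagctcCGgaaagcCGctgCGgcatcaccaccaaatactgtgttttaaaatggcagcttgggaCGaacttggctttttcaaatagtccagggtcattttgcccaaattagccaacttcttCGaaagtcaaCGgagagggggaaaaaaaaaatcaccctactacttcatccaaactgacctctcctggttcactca
PEG10: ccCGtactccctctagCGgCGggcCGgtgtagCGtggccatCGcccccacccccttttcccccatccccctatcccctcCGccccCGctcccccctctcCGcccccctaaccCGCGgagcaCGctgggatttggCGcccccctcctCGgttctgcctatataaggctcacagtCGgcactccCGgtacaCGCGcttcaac
PEG3: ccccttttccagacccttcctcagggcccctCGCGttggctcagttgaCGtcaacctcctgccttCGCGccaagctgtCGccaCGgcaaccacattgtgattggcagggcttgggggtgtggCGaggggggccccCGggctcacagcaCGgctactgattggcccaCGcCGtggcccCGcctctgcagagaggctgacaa

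Over 19556 windows of the same length before annotated genes, the median window held 10 CG dinucleotides and 59% G or C. The NNAT window held 6 CG dinucleotides and 46% G or C, the PEG10 window 18 and 69.5%, and the PEG3 window 13 and 66.5%. The ratio of observed to expected CG was highest among the members for DLK1 (1.11, 96.0th percentile of all windows) and GRB10 (1.10, 95.8th percentile), and lowest for PLAGL1 (0.17, 13.1th percentile). The 8-base sequence GGGGCCCC, known as a binding sequence of the PLAGL1 protein and identical on both strands, was found in the window of 1 of the 10 members, PEG3, and in 288 of all windows (1.47%). RefSeq lists several transcript starts for some members, 3 for NNAT and 16 for PLAGL1, and each window uses the outermost one.

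The members also differ in what lies beside them. NNAT (chr17:40625990-40629523) sits wholly inside the span of BLCAP on the opposite strand, but no exon base of the pair overlaps. The NNAT window printed above lies inside that span too. MEST (chr18:18319126-18358655) overlaps the opposite-strand gene COPG2 by 12411 bases, of which 619 are exonic in both, so that some reads could belong to either where counting ignored strand. Whether the counting used strand is not stated in the sources used here. PEG10 and SGCE are transcribed away from each other with 217 bases between their starts, and most of that gap is the PEG10 window printed above. PEG3 and its opposite-strand neighbour LOC110261077 are also transcribed away from each other, with starts 96 bases apart. That neighbour therefore begins inside the PEG3 window printed above.

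Library totals ranged from 37002909 to 95559841 counts, and 15.8% to 34.6% of them fell on mitochondrially encoded genes. Heart muscle markers were abundant, as the tissue label says, and 8 of 10 passed the count filter. Levels are in CPM, the count scaled to a fixed library total. The 9 heart muscle markers that the count table holds summed to 34900 to 70700 CPM in the 8 MI libraries. In the 9 naive libraries of days 7 to 28 they summed to 54300 to 95900 CPM. A set of 4 libraries, called the second set below, stood apart: the gene ENSSSCG00000035520 had a level of 5.06 to 12.1 CPM there, against a level of 2820 to 8810 CPM in the remaining 17 libraries. The second set is replicate 3 of MI day 7, replicate 2 of MI day 28, replicate 3 of naive day 14 and replicate 2 of naive day 28. The labels name no batch for it. Some results that rest on these libraries, such as those of NNAT and DLK1, are given with and without them.

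Levels are CPM scaled by the trimmed mean of M values, and they were not compared between genes because transcript lengths of the files' annotation are not used here. All 10 members passed the filter on low counts, which left 15359 genes for testing. IGF2BP1 passed on a handful of libraries, with 175 counts in all 21 and 0 counts in 7 of them. Differences are log2 fold changes from edgeR's quasi-likelihood test with 1 mean per group, and a gene is called when its p, adjusted over all 15359 genes, is under 0.05. In tissue, fewer cells of a type and less RNA per cell cannot be told apart.

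**Figure D1:**
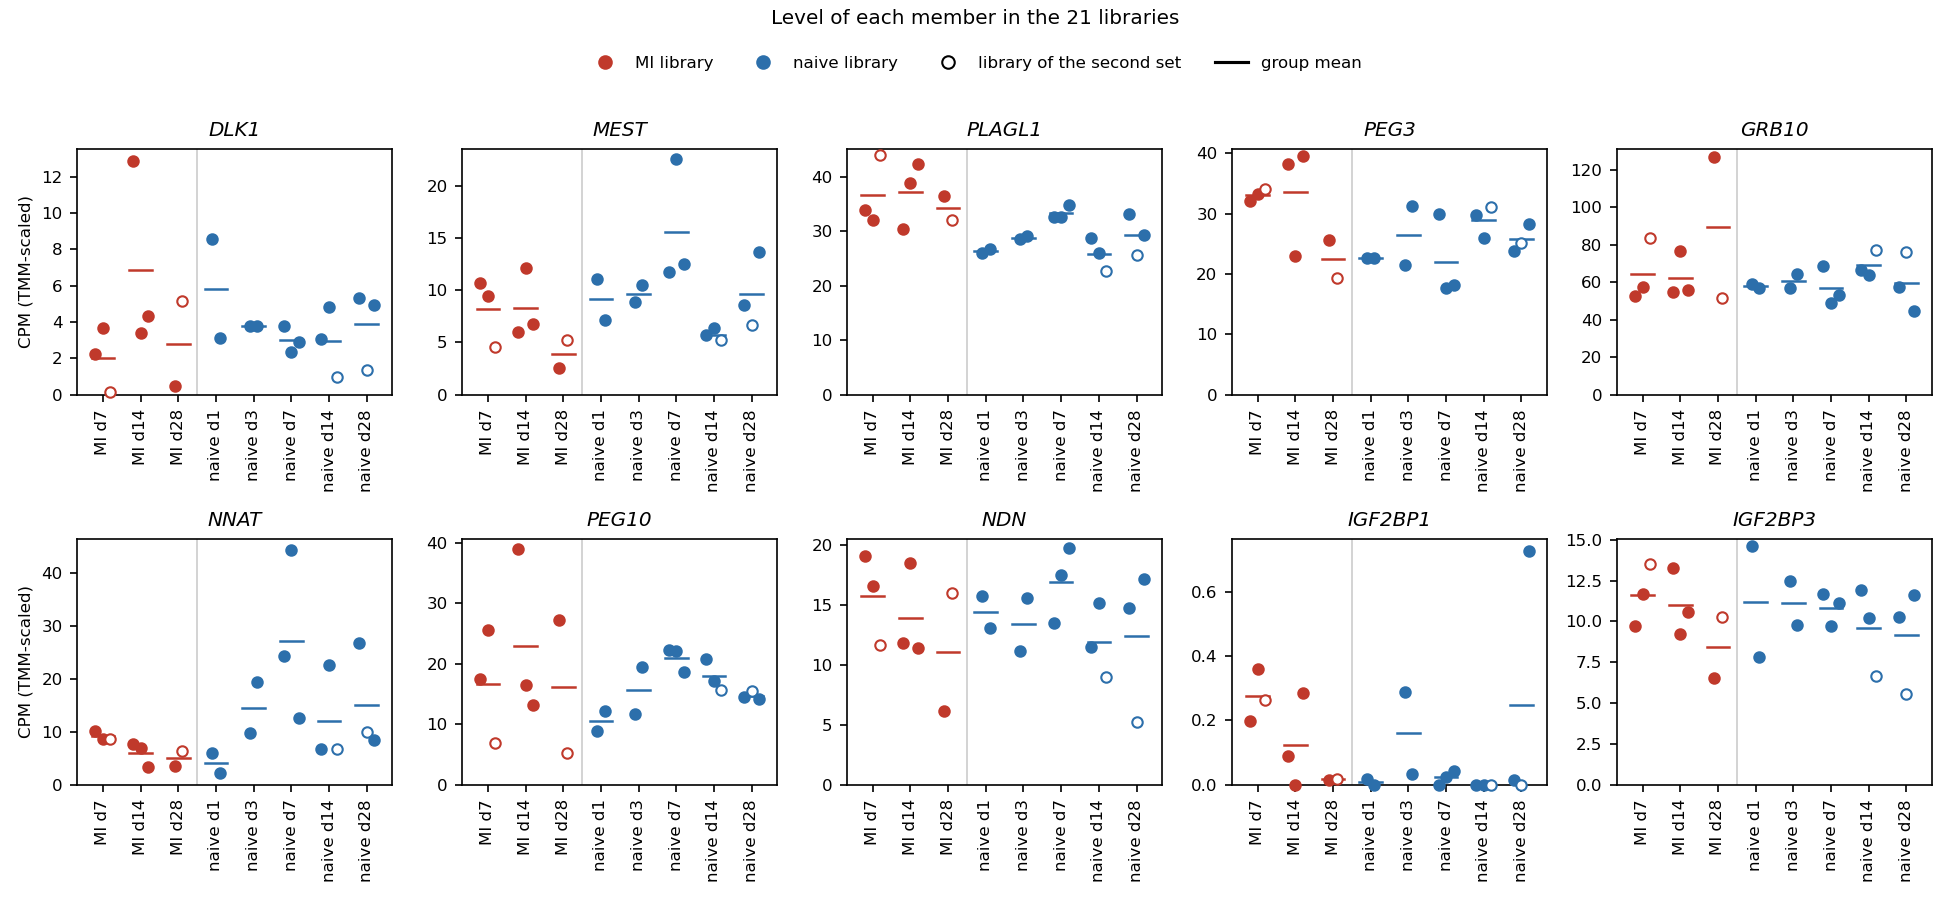
Level of each of the 10 genes in CPM (vertical axis, own scale per panel, starting at 0) in the 8 groups, with 1 point per pig, the group mean as a bar and open points for the second set. NNAT lies at 3.37 to 10.1 CPM in the MI libraries, and naive libraries of days 7 to 28 reach 44.4 CPM; GRB10 has a single high MI library on day 28 at 127 CPM.

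NNAT was the 1 member that edgeR called with infarction, over the mean of days 7, 14 and 28. It encodes neuronatin, a small membrane protein of the endoplasmic reticulum that is best known from the developing brain. On day 7 the MI libraries had 10.1, 8.65 and 8.68 CPM, against 24.3, 44.4 and 12.6 CPM in naive libraries. On day 14 the MI libraries had 7.69, 6.92 and 3.37 CPM, against 6.78, 22.6 and 6.75 CPM in naive libraries. On day 28 the MI libraries had 3.48 and 6.43 CPM, against 26.8, 10 and 8.38 CPM in naive libraries. All 8 MI libraries lay below the naive mean of their day, and 6 of the 8 below every naive library of their day, while the groups overlapped on day 14.

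Averaged over the 3 days, NNAT fell by 1.39 on the log2 scale in MI hearts (SE 0.36, 95% interval -2.16 to -0.63, edgeR adjusted p = 0.0415), which is 0.38 times the naive level. It was the only 1 of the 10 members called in that comparison, in which 4.43% of all tested genes were called 2.36% higher and 2.07% lower. A count of 1 does not set the 10 genes apart from that background. The estimates by day were -1.57 (SE 0.60, adjusted p = 0.308) on day 7, -1.01 (SE 0.59, adjusted p = 0.999) on day 14 and -1.61 (SE 0.69, adjusted p = 0.148) on day 28, and none of the 3 was called. The estimate on day 28 differed from that on day 7 by -0.04 (95% interval -1.89 to 1.81).

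The NNAT call sits near the threshold. Under 24 other settings the estimate stayed negative, between -1.72 and -1.12, and the adjusted p ran from 0.00301 to 0.0992; the call was kept in 8 of them. It was lost with no filter on low counts (-1.38, adjusted p = 0.0655), without the second set (-1.72, adjusted p = 0.0757), with a term for that set (-1.33, adjusted p = 0.0604) and in 13 of 17 fits that left out 1 library. Any 1 of the 8 MI libraries except day 14 replicate 1 ended the call when left out, as did naive day 7 replicates 1 and 2, naive day 14 replicates 2 and 3 and naive day 28 replicates 1 and 2.

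**Figure D2:**
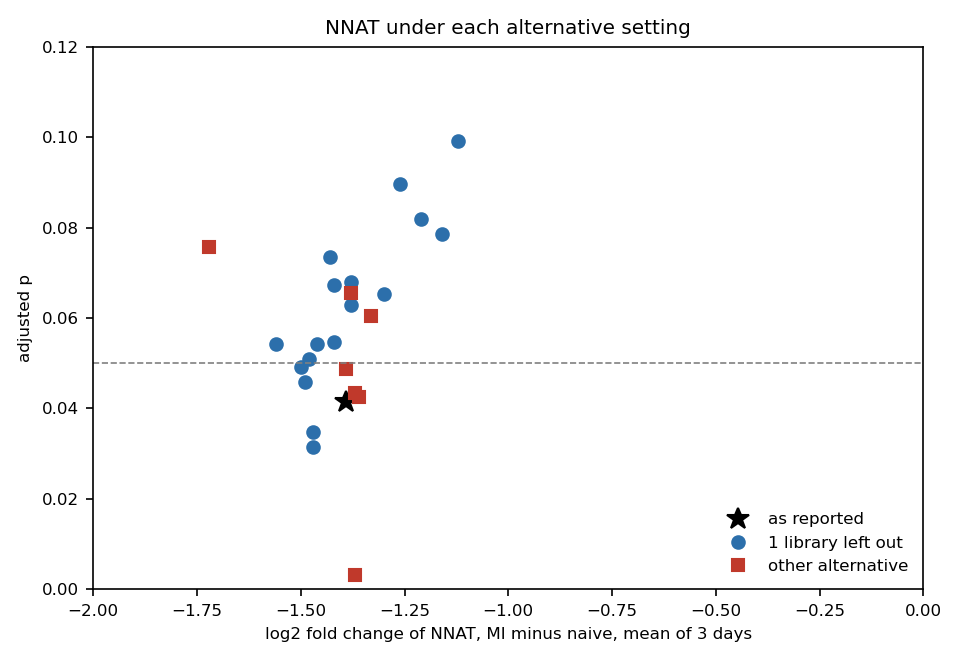
Log2 fold change of NNAT, MI minus naive over the mean of 3 days (horizontal axis), against its adjusted p (vertical axis) as reported (star), with 1 library left out (circles) and under the other alternatives (squares). The estimates stay between -1.72 and -1.12, and the points fall on both sides of the dashed line at 0.05.

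Markers of other cells were read beside the NNAT result. Of 7 tested neuron and Schwann cell markers, listed because NNAT is known from nervous tissue, 0 were called by edgeR over the mean of days. The 11 listed markers that the count table holds summed to 1.57 to 31.2 CPM in MI and 6.12 to 23.2 CPM in naive libraries. On day 7 alone, where NNAT did not overlap, the sums did not overlap either, at 1.57 to 6.82 CPM in MI and 10.7 to 12.9 CPM in naive libraries, with a median estimate of -1.25 and 2 of 7 at an unadjusted p under 0.05. On day 28 the median was 1.61, with 1 of 7 called higher. Over the mean of days 3 of 9 smooth muscle and pericyte markers were called higher, 1 of 10 fibroblast markers, 1 of 11 lymphocyte markers and 1 of 7 adipocyte markers higher, and 1 of 8 cardiomyocyte markers lower. The mean log2 level of the smooth muscle list and that of NNAT had a Pearson r of -0.65 over the 21 libraries, which share age, infarction and library set. For the neuron and Schwann cell list r was -0.15, and for the remaining lists it ran from -0.32 (endothelium) to 0.47 (cycling cell). The cycling cell markers had a median estimate of -0.88 over the mean of days, with 0 of 9 called and 4 at an unadjusted p under 0.05. The part of cell makeup in the NNAT result was not tested.

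PLAGL1 was the member with the smallest spread. It encodes a zinc finger transcription factor, also called ZAC1, that regulates other imprinted genes in the mouse. Over days 7 to 28 the 8 MI libraries ran from 30.4 to 44 CPM with a median of 35.2 CPM, and the 9 naive libraries from 22.7 to 34.7 CPM with a median of 29.2 CPM. On day 14 the MI libraries had 30.4, 38.8 and 42.4 CPM, against 28.8, 25.9 and 22.7 CPM in naive libraries, with no overlap. From day 7 to day 14 the MI mean went from 36.7 to 37.2 CPM and the naive mean from 33.2 to 25.8 CPM. The naive level thus moves with the day 14 difference. Over the mean of days the estimate was 0.30 (SE 0.09, 95% interval 0.10 to 0.50, edgeR adjusted p = 0.0757), above the naive mean of the day in 7 of 8 MI libraries. It was not called. DESeq2 called it (0.32, adjusted p = 0.0239), as did the fits without MI day 14 replicate 1 and without naive day 14 replicate 1 (0.34 in both, adjusted p = 0.0371 and 0.0474), and the adjusted p over all 24 settings reached 0.23.

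MEST encodes a membrane enzyme of the endoplasmic reticulum made in the embryonic mesoderm. It had 10.7, 9.44 and 4.54 CPM in MI libraries on day 7, against 11.7, 22.5 and 12.5 CPM in naive libraries. On day 28 it had 2.5 and 5.21 CPM in MI libraries, against 8.59, 6.62 and 13.6 CPM in naive libraries. The groups did not overlap on either day. On day 14 they did, at 5.98, 12.1 and 6.79 CPM in MI and 5.69, 6.34 and 5.19 CPM in naive libraries. The estimates were -0.92 (SE 0.39, adjusted p = 0.351) on day 7, 0.53 (SE 0.39, adjusted p = 0.999) on day 14 and -1.32 (SE 0.45, adjusted p = 0.0803) on day 28. DESeq2 called the day 28 difference (-1.25, adjusted p = 0.0425). The median estimates of the cycling cell markers had the same signs as those of MEST. They were -1.14 on day 7, 0.12 on day 14 and -1.44 on day 28, with 0 of 9 markers called by edgeR on each day. The mean log2 level of the list had an r of 0.71 with MEST over the 21 libraries. Among the other lists r ran from -0.63 for adipocyte to 0.52 for atrium markers, and it was -0.56 for the mitochondrial share. The cycling cell list summed to 368, 423 and 63.5 CPM in MI libraries on day 7, the last in the second set. The naive libraries of that day had 443 to 570 CPM. On day 28 the sums were 62.5 and 232 CPM in MI and 166 to 227 CPM in naive libraries. At an unadjusted p under 0.05 stood 2 of the 9 on day 7, 0 on day 14 and 1 on day 28, and the part of cycling cells in the MEST values was not tested. The MEST effect on day 14 lay 1.45 above that on day 7 (SE 0.55, 95% interval 0.29 to 2.61, adjusted p = 0.626), which edgeR did not call.

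PEG3 encodes a zinc finger protein that governs maternal care and growth in mice. On day 7 it had 32, 33.2 and 34 CPM in MI libraries, against 29.9, 17.6 and 18.2 CPM in naive libraries, with no overlap. On day 14 it had 38.2, 22.9 and 39.6 CPM in MI libraries and 29.8, 26 and 31.1 CPM in naive libraries. On day 28 it had 25.6 and 19.3 CPM in MI libraries and 23.8, 25.1 and 28.2 CPM in naive libraries. The estimate was 0.59 (SE 0.23, adjusted p = 0.307) on day 7 and -0.20 (SE 0.25, adjusted p = 0.646) on day 28, a difference of -0.79 (SE 0.34, 95% interval -1.51 to -0.07, adjusted p = 0.225).

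GRB10 encodes an adaptor that binds the insulin and IGF1 receptors and damps their signal, and so restrains growth. Its level on day 28 rested on 1 library: the MI libraries had 127 and 51.5 CPM, against 57.2, 76.1 and 44.6 CPM in naive libraries. On day 7 the MI libraries had 52.6, 57.3 and 83.8 CPM, against 68.6, 49.1 and 53.3 CPM in naive libraries. On day 14 the MI libraries had 54.6, 76.4 and 55.7 CPM, against 66.7, 63.7 and 77.2 CPM in naive libraries. The groups overlapped on each day, and the day 28 estimate was 0.59 (SE 0.31, adjusted p = 0.227). It was 1.13 and called (adjusted p = 0.0359) when MI day 28 replicate 2 was left out, a fit in which the lone MI library is assumed to vary like the other groups, and -0.18 to 1.13 over the 5 fits that left out 1 day 28 library.

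DLK1, a membrane protein with a soluble form that holds back adipocyte differentiation, varied most between libraries among the 9 members with counts in every library. Its highest library was 89.1 times its lowest: MI libraries had 2.23, 3.65 and 0.145 CPM on day 7, 12.9, 3.42 and 4.33 CPM on day 14, and 0.466 and 5.15 CPM on day 28. Naive libraries had 3.79, 2.37 and 2.87 CPM on day 7, 3.07, 4.81 and 0.967 CPM on day 14, and 5.35, 1.36 and 4.94 CPM on day 28. The lowest values, 0.145, 0.466, 0.967 and 1.36 CPM, came from the libraries with the largest mitochondrial shares (26.2%, 34.6%, 29.7% and 30.9%). All but 0.466 CPM, from MI day 28 replicate 1, belonged to the second set. The part of either in the DLK1 spread was not tested. The groups overlapped on each of the 3 days, and over their mean the estimate was 0.05 with a 95% interval of -1.11 to 1.22. The day 28 estimate was -0.47 (SE 1.04, adjusted p = 0.801), and its sign depended on the libraries: it was 0.78 (adjusted p = 0.686) with a term for the second set and -3.45 and called (adjusted p = 0.0358) without that set, on 1 MI library.

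PEG10, a gene of retrotransposon origin that the mouse placenta needs, had 17.4, 25.5 and 6.89 CPM in MI libraries on day 7, 38.9, 16.4 and 13.2 CPM on day 14, and 27.2 and 5.18 CPM on day 28. The naive libraries of days 7 to 28 kept to a narrower range, 14.1 to 22.2 CPM. The 2 lowest MI values belonged to the second set, MI day 7 replicate 3 and MI day 28 replicate 2. Over the mean of days the estimate was 0.06 (SE 0.31, 95% interval -0.59 to 0.70). The day 28 estimate was 0.14 (SE 0.57), and it ran from -1.48 to 0.94 over 12 other settings.

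NDN encodes necdin, a MAGE family protein that holds nerve cells out of the cell cycle. Over days 7 to 28 it ran from 6.14 to 19.1 CPM in the 8 MI libraries and from 5.24 to 19.8 CPM in the 9 naive libraries, with medians of 13.9 and 14.8 CPM. The ranges nearly coincide, and the estimate over the mean of days was -0.01 (SE 0.24, 95% interval -0.51 to 0.49).

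IGF2BP3 ran from 6.51 to 13.5 CPM in the 8 MI libraries, with a median of 10.5 CPM, and from 5.57 to 11.9 CPM in the 9 naive libraries of the same days, with a median of 10.3 CPM. The estimate over the mean of days was 0.06 (SE 0.18, 95% interval -0.32 to 0.44). IGF2BP1 was close to the limit of detection. It had 16, 35 and 20 counts in MI libraries on day 7, 5, 0 and 29 on day 14 and 1 and 1 on day 28. Naive libraries had 0, 1 and 2 counts on day 7, 0 in all 3 on day 14, and 1, 0 and 43 on day 28. The MI and naive libraries did not overlap on day 7, as in 24.3% of all genes, and the difference was not called (edgeR adjusted p = 0.432). The MI day 7 libraries are themselves among the few that carried IGF2BP1 past the filter on low counts. No fold change by day is given for IGF2BP1, because fitted values so close to 0 depend on the prior count.

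**Figure D3:**
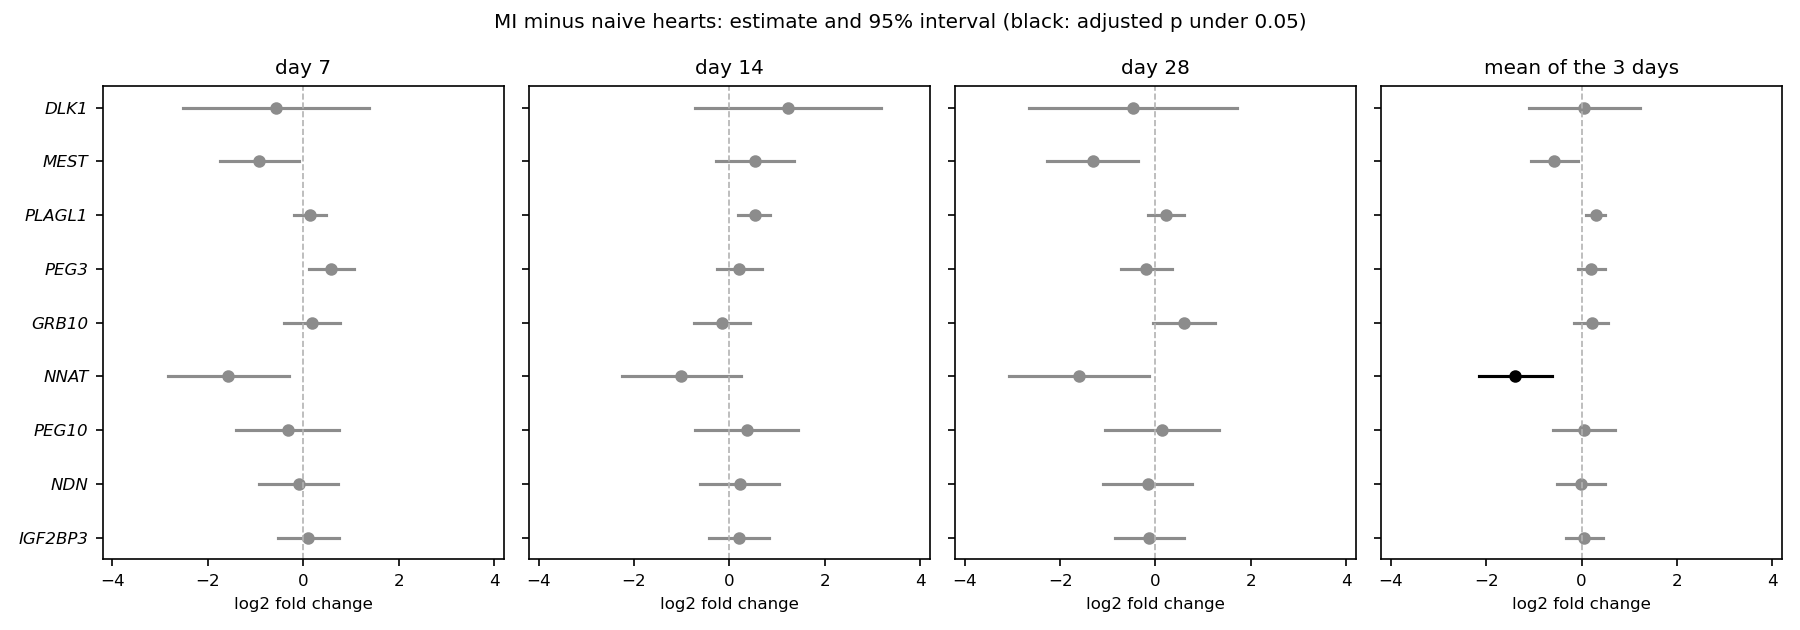
Log2 fold change, MI minus naive (horizontal axis), of 9 members on days 7, 14 and 28 and over the mean of the 3 days, with 95% intervals; IGF2BP1 is left out for its low counts. NNAT over the mean of days, at -1.39, is drawn in black as the 1 called value, and the intervals of DLK1 are the widest.

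Counted by day, edgeR called none of the 10 members. On day 7, 0 were called, against 0% of all genes, and 3 members were at an unadjusted p under 0.05, against 12.4% of all genes. DESeq2 called 0 members on that day and 1.71% of all genes. On day 14, 0 were called, against 0% of all genes, and 2 members were at an unadjusted p under 0.05, against 5.35% of all genes. These 2 members were PLAGL1 and IGF2BP1, the latter on 5, 0 and 29 counts in MI libraries and 0 in each naive library. DESeq2 called 0 members on that day and 0.0912% of all genes. On day 28, 0 were called, against 6.86% of all genes, and 2 members were at an unadjusted p under 0.05, against 27% of all genes. DESeq2 called 1 member on that day, MEST, and 14.2% of all genes. Over the mean of days it called 2 members, NNAT and PLAGL1, and 10.7% of all genes. The estimate was above 0 for 5 of the 10 members on day 7, 8 on day 14 and 3 on day 28. Their median log2 fold change was 0.00 on day 7, 0.29 on day 14 and -0.18 on day 28, beside medians over all genes of 0.03, -0.01 and 0.00. The groups did not overlap for 4 members on day 7, 1 on day 14 and 2 on day 28, beside 24.3%, 8.22% and 37.8% of all genes.

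The change of the infarct effect between days called 0 members. For day 14 minus day 7, 0.00651% of all genes were called, and 1 member, MEST, had an unadjusted p under 0.05, against 7.07% of all genes; the estimate was above 0 for 8 of 10 members. For day 28 minus day 7, 0.013% of all genes were called, and 2 members, PEG3 and IGF2BP1, had an unadjusted p under 0.05, against 19% of all genes; the estimate was above 0 for 4 of 10 members. DESeq2 called 0 members in either comparison, against 0.176% and 4.41% of all genes. Without the second set, which leaves 1 MI library on day 28, edgeR called 4 members on that day: DLK1 (-3.45, adjusted p = 0.0358), MEST (-2.14, adjusted p = 0.0348) and NDN (-1.37, adjusted p = 0.0468) lower, and GRB10 (1.33, adjusted p = 0.0103) higher. That fit called 6.33% of all genes on day 28. With all libraries, 4.47% of genes were called higher and 2.38% lower. That library, MI day 28 replicate 1, had the largest mitochondrial share of the 21 (34.6%) and a summed adipocyte list of 2380 CPM, against 481 CPM in the other MI library of that day and 480 to 1450 CPM in the naive libraries. The part of either in these values was not tested.

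In naive hearts the question is whether these genes decline from birth to 4 weeks. NNAT had 5.92 and 2.16 CPM on day 1, 9.7 and 19.4 CPM on day 3, 24.3, 44.4 and 12.6 CPM on day 7, 6.78, 22.6 and 6.75 CPM on day 14 and 26.8, 10 and 8.38 CPM on day 28. Its day 1 libraries were the lowest of the naive hearts and did not overlap those of day 7 or day 28. For day 7 against day 1, 4 of 10 members and 24.7% of all genes did not overlap. For day 28 against day 1 it was 3 of 10 members and 25.1% of all genes. The day 7 mean of NNAT was 27.1 ± 16.1 CPM (SD, n = 3), against 4.04 ± 2.66 CPM on day 1 (SD, n = 2). The log2 fold change was 2.74 (SE 0.73, 95% interval 1.19 to 4.29), but edgeR did not call it (adjusted p = 0.853), while DESeq2 did (2.74, adjusted p = 0.0296). For day 28 against day 1 the estimate was 1.90 (SE 0.70, 95% interval 0.41 to 3.39, adjusted p = 0.867).

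MEST also had a distinct day. Its naive libraries had 11.1 and 7.17 CPM on day 1, 8.82 and 10.5 CPM on day 3, 11.7, 22.5 and 12.5 CPM on day 7, 5.69, 6.34 and 5.19 CPM on day 14 and 8.59, 6.62 and 13.6 CPM on day 28. The day 14 libraries lay below all other naive libraries, and the day 14 estimate against day 7 was -1.44 (SE 0.39), not called by edgeR (adjusted p = 0.28) and called by DESeq2 (-1.48, adjusted p = 0.0476). The cycling cell markers had a median of -1.17 in that comparison, with 0 of 9 called and 2 at an unadjusted p under 0.05. The other member at an unadjusted p under 0.05 there was PLAGL1, at -0.37 (SE 0.16, edgeR adjusted p = 0.532). PLAGL1 had 32.5, 32.6 and 34.7 CPM on day 7 and 28.8, 25.9 and 22.7 CPM on day 14, without overlap. Between these days 2 of 10 members and 16.9% of all genes did not overlap. The PLAGL1 libraries of day 1, at 26 and 26.8 CPM, lay below those of day 7 as well. PEG10 had 8.91 and 12.2 CPM on day 1, 11.7 and 19.5 CPM on day 3, 22.2, 22 and 18.6 CPM on day 7, 20.8, 17.1 and 15.7 CPM on day 14 and 14.4, 15.4 and 14.1 CPM on day 28. Its day 7 libraries lay above its day 1 libraries without overlap, and the estimate was 0.99 (SE 0.59, adjusted p = 0.922). In that comparison 24.7% of all genes did not overlap.

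For the members other than NNAT with more than a few counts, the 95% interval of the day 28 difference from day 1 held 0. PLAGL1 averaged 29.3 ± 3.83 CPM on day 28 (SD, n = 3), against 26.4 ± 0.564 CPM on day 1 (SD, n = 2), and the 95% interval of the log2 difference was -0.22 to 0.53. PEG3 averaged 25.7 ± 2.23 CPM on day 28 and 22.6 ± 0.086 CPM on day 1, with an interval of -0.35 to 0.72. GRB10 averaged 59.3 ± 15.8 CPM on day 28 and 57.8 ± 1.34 CPM on day 1, with an interval of -0.62 to 0.69. IGF2BP3 had an estimate of -0.29 (SE 0.33, adjusted p = 0.877). DLK1 averaged 3.88 ± 2.2 CPM on day 28 and 5.82 ± 3.86 CPM on day 1. The intervals for NDN (-1.14 to 0.70) and MEST (-0.84 to 0.99) were wider, and that of DLK1 (-2.71 to 1.55) was the widest of these, so its data do not show a steady level. IGF2BP1 had 1, 0 and 43 counts on day 28 and 1 and 0 counts on day 1.

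Over the 5 ages, the slope of log2 level per doubling of age was positive for 6 members and negative for 4, with a median of 0.02 beside 0.01 over all genes. It was 0.34 for NNAT (SE 0.13, 95% interval 0.06 to 0.62, adjusted p = 0.975), and the interval held 0 for each of the other members, among them PLAGL1 (-0.05 to 0.09), PEG3 (-0.06 to 0.14) and IGF2BP3 (-0.20 to 0.07). In each naive comparison edgeR called 0 of 10 members, against 0% of all genes. At an unadjusted p under 0.05 stood 1 member for day 7 against day 1 (5.44% of all genes), 2 for day 14 against day 7 (8.84%), 1 for day 28 against day 14 (1.15%), 1 for day 28 against day 1 (5.27%) and 1 for the slope (4.01%). The member for day 28 against day 14 was IGF2BP1, on 1, 0 and 43 counts against 0 in each day 14 library. DESeq2 called NNAT for day 7 against day 1, with 0.0781% of all genes, and MEST for day 14 against day 7, with 0.586%. It called 0 members in the other 3, with 0%, 0% and 0.00651% of all genes. For day 14 against day 7 the estimate was below 0 for 8 of 10 members, with a median of -0.30 beside 0.04 over all genes. These comparisons share naive libraries with each other and with the infarct comparisons.

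**Figure D4:**
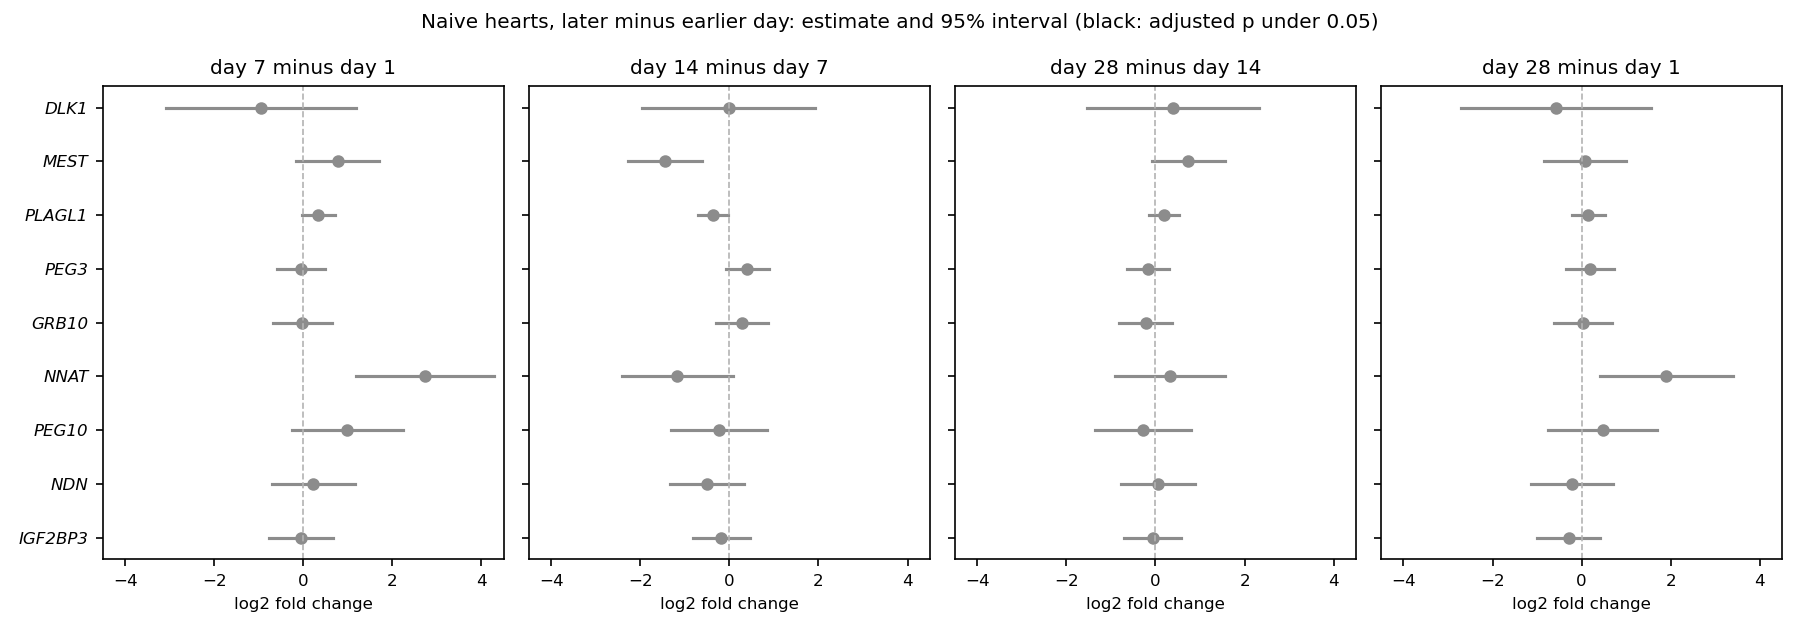
Log2 fold change between naive hearts of different ages, later minus earlier day (horizontal axis), of 9 members with 95% intervals; IGF2BP1 is left out for its low counts. NNAT lies at 2.74 for day 7 minus day 1 and 1.90 for day 28 minus day 1, MEST at -1.44 for day 14 minus day 7, and no value is drawn in black because none was called.

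The order of the 8 group means differed from gene to gene. The highest mean was that of MI day 14 for DLK1, PLAGL1, PEG3 and PEG10, of naive day 7 for MEST, NNAT and NDN, of MI day 7 for IGF2BP1 and IGF2BP3, and of MI day 28 for GRB10. The ratio of the highest to the lowest group mean was 6.71 for NNAT, whose lowest group was naive day 1, 4.04 for MEST and 3.43 for DLK1, and from 1.38 for IGF2BP3 to 2.15 for PEG10 in the other 6 with a mean above 0 in every group. Groups next to each other in the order overlapped in all 7 neighbouring pairs for DLK1, GRB10, NDN, IGF2BP1 and IGF2BP3, in 6 for MEST, PLAGL1, NNAT and PEG10, and in 5 for PEG3.

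Across libraries the members fell into no single block. Over the 45 pairs of members, Pearson r of log2 CPM in the 21 libraries ran from -0.69 to 0.69 with a median of 0.14, and 26 pairs were above 0. MEST and NDN had the highest r (0.69, and 0.63 in the 13 naive libraries), followed by NDN and IGF2BP3 (0.60 and 0.71 in naive libraries) and MEST and NNAT (0.55 and 0.49). GRB10 ran the other way from DLK1 (-0.69, and -0.51 in naive libraries), NDN (-0.68 and -0.73) and MEST (-0.67 and -0.72). GRB10 also had an r of 0.76 with the share of mitochondrial counts over the 21 libraries, against -0.76 for NDN, -0.67 for DLK1 and -0.56 for MEST. The 21 libraries share age, infarction, depth and library set, and the part of the mitochondrial share in these relations was not tested.

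**Figure D5:**
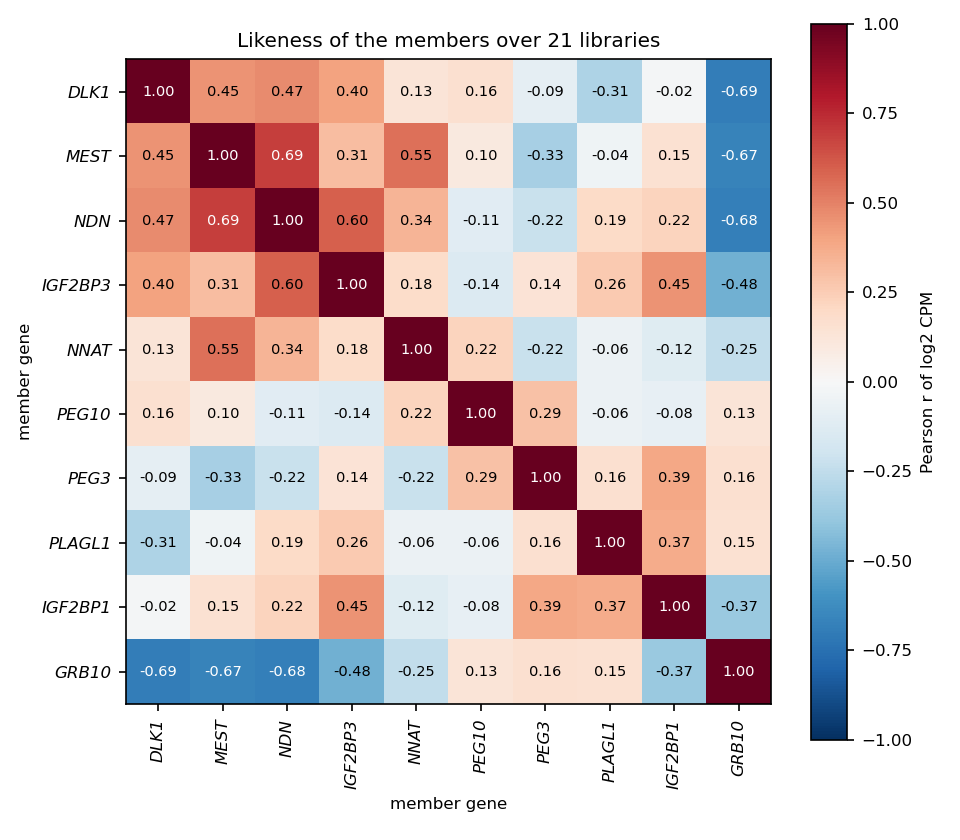
Pearson r of log2 CPM over the 21 libraries for each pair of the 10 members (rows and columns), coloured from -1 in blue to 1 in red. DLK1, MEST, NDN and IGF2BP3 form a patch of positive values up to 0.69, and GRB10 is negative with each of them, down to -0.69.

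For each member, the genes with the highest r over the 21 libraries were looked up among all tested genes with a symbol. NDN was most like LDOC1, TSPYL5 and NIPA1 (0.84 each, and 0.82, 0.86 and 0.84 in the 13 naive libraries). GRB10 had the closest match of any member, MOB2 (0.95, and 0.91 in naive libraries), then CCDC149 (0.93) and SPSB3 (0.90). MEST was most like UNG (0.89), which repairs uracil in DNA, PPIL1 (0.86) and ANAPC7 (0.85). IGF2BP3 was most like BMP7 (0.83), a growth factor of the TGF beta family, TNNI1 (0.81), the troponin I isoform of the fetal heart, and LIG1 (0.77), the ligase of DNA replication.

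NNAT was most like ADORA1 (0.78), an adenosine receptor, KLHDC3 (0.75) and C12orf73 (0.74). PLAGL1 was most like SMARCA1 (0.80, but 0.40 in naive libraries), BHLHB9 (0.78) and MYOZ1 (0.76). PEG3 was most like AMOTL1 (0.83), PELP1 (0.79) and MSI1 (0.78), and PEG10 was most like NUP62CL (0.77), RCC1 (0.76) and RTKN2 (0.76). DLK1 was most like PTPRA (0.87), SERPINH1 (0.83), a collagen chaperone, and HUNK (0.82). IGF2BP1, on its few counts, was nearest to SLAIN1 (0.83), UBAP2L (0.83) and KHDRBS1 (0.82).

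Neighbours and relatives were looked up separately. NDN and MAGEL2, 36749 bases apart on chromosome 1, had an r of 0.69 over the 21 libraries (0.68 in naive libraries). PEG10 and SGCE, with their starts 217 bases apart, had 0.40 (0.61 in naive libraries), and MEST and COPG2, which overlap, had -0.30 (0.17 in naive libraries). IGF2BP3 and its paralog IGF2BP2 had 0.45 (0.73 in naive libraries), and GRB10 and its paralog GRB14 had 0.59 (0.46 in naive libraries). Others showed little or no likeness. NDN and MKRN3 had 0.18 (-0.30 in naive libraries), DLK1 and DIO3 -0.24 (-0.22), PEG10 and PPP1R9A 0.01 (-0.16) and PLAGL1 and its relative PLAGL2 0.00 (-0.39). GRB10 had 0.31 (0.31) with the receptor gene IGF1R and 0.37 (0.47) with INSR. PLAGL1 and PEG3, whose window holds the PLAGL1 sequence, had 0.16 (-0.42 in naive libraries).

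A list of 29 other imprinted genes, of which 23 were in the table and 20 were tested, held 1 called gene in the infarct comparisons, over the mean of days, where 4.43% of all genes were called. SNRPN, which encodes a spliceosome protein and lies in the same imprinted domain as NDN in human, had 49.2 to 66.7 CPM in the 8 MI libraries and 62 to 92.7 CPM in the 9 naive libraries of days 7 to 28. Over the mean of days it fell by 0.37 on the log2 scale (SE 0.08, edgeR adjusted p = 0.0222), and the call was lost without the second set (adjusted p = 0.0629) and without naive day 14 replicate 2 (adjusted p = 0.0591). The list's median was 0.09 over the mean of days, beside 0.03 over all genes, and 4 of its genes had an unadjusted p under 0.05, against 23.1% of all genes.

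A list of 20 partners in fetal growth, of which 19 were in the table and 16 were tested, held 1 called gene as well, on day 28, where 6.86% of all genes were called. GPC3, a cell surface proteoglycan whose loss in human causes overgrowth, had 62.3 and 63.5 CPM in MI libraries on day 28, against 37, 25.4 and 19.3 CPM in naive libraries. It rose by 1.21 on the log2 scale (SE 0.25, edgeR adjusted p = 0.0182), and the call was lost in a fit to the day 28 libraries alone (adjusted p = 0.15), without naive day 28 replicate 2 (0.0521) and without replicate 3 (0.0844). In the same comparison 8 of 11 macrophage markers were called higher, 4 of 9 smooth muscle and pericyte, 4 of 11 lymphocyte, 3 of 7 adipocyte, 1 of 10 fibroblast and 1 of 6 epicardial markers. The macrophage list summed to 345 and 3880 CPM and the fibroblast list to 2080 and 21000 CPM in replicates 1 and 2 of MI day 28. The part of cell makeup in the GPC3 result was not tested. IGF2BP2, the relative of IGF2BP1 and IGF2BP3, had an estimate of 0.45 over the mean of days (SE 0.15, adjusted p = 0.0964), and was also named after its value was seen. In naive hearts edgeR called 0 genes of either list in each of the 5 comparisons, with at most 3 imprinted genes and 0 partners at an unadjusted p under 0.05.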

How the data were processed

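The deposited table holds unnormalized counts for 21 libraries, by Ensembl gene ID. The submitters' processing notes name Trim Galore, STAR 2.5.2, HTSeq 0.6.1 and DESeq2, and the genome build Sscrofa11.1. Of strand setting and annotation release the sources used here say nothing. Same-group libraries differed by 48.5 to 923 times counting variance (chi-square per degree of freedom, 18 pairs), so none of these pairs was a library counted again. Pairs from different groups were not compared in this way.

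Here, symbols came from the table (17947 genes) or from a reference name table by ID (807 more). The filter was filterByExpr (edgeR 4.0.16), which left 15359 of 25880 genes. Scaling used the trimmed mean of M values (TMM), and the model had 1 mean for each of 8 groups (glmQLFit, robust, 13 residual degrees of freedom). Each contrast was tested two-sided with the quasi-likelihood F-test and Benjamini-Hochberg adjustment over all genes tested. The slope is a contrast of the 5 naive means on log2 age. SEs were derived from the F statistic. Depth was 37002909 to 95559841 counts. Likeness is Pearson r of log2 CPM (prior count 2). Sequences are from the RefSeq annotation and genome. The fit was also run on simulated counts drawn with its own estimated spread. These held no second set and no single deviating library, so the run says nothing on either.

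All 10 members are named; from the imprinted and partner lists, called genes with the smallest adjusted p; and per member the 3 most alike genes. Members and lists were chosen with earlier results of these data known. Alternatives were another scaling, no or a stricter filter, a term for or removal of the second set, only the groups compared, each library left out, and DESeq2 1.42.0. R 4.3.3, Python 3.11.15 and matplotlib 3.10.9 were used.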

Additional observations from a re-analysis of the deposited data

Results flagged for a closer look

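The MI minus naive estimate of MEST on day 14 lay 1.45 log2 units above that on day 7 (95% interval 0.29 to 2.61, edgeR unadjusted p = 0.0171), which did not pass the adjustment over all genes (adjusted p = 0.626). On day 28 it lay 1.85 log2 units under that on day 14 (-1.85), the difference of the 2 estimates, which was not tested. MEST was highest in naive hearts on day 7 and lowest of the naive groups on day 14, so the naive level moves with this result. The median of the 9 tested cycling cell markers was -1.14, 0.12 and -1.44 on days 7, 14 and 28, and their part was not tested.

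The estimate for PEG3 on day 28 lay under that on day 7, by -0.79 (95% interval -1.51 to -0.07, edgeR unadjusted p = 0.0331, adjusted p = 0.225, not called). The fitted effect on IGF2BP1 on day 28 lay under that on day 7 by -7.22 (edgeR unadjusted p = 0.0161, adjusted p = 0.176, not called). The size of this value depends on the prior count, so it is not read as a fold change. It rests on 0 to 43 counts per library, with a group total of 3 in naive day 7 and 2 in MI day 28. In naive day 28, 1 library holds 43 of the 44 counts of its group.

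Every group holds 2 or 3 libraries, so no test for a single outlying library was made.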

How the results depend on the processing

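Of 1673 member values under alternatives, 1645 stayed on the same side of the threshold, 16 lost a call, all for NNAT over the mean of days, and 12 gained one. The sign was opposite to the reported one in 123 of them, spread over all 10 members and all uncalled in both fits. The number of members called over the mean of days, 1 as reported, was 0 with no filter on low counts, with a term for the second set and without that set, 2 by DESeq2, and 0 to 2 with 1 library left out. On day 28, with 0 as reported, it was 4 without the second set, 1 by DESeq2 and 0 to 1 with 1 library left out. It was 1 without the second set for the effect on day 28 minus day 7, and 1 by DESeq2 for naive day 7 against day 1 and day 14 against day 7, each 0 as reported.

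Over all genes, calls on day 7 numbered 0 by edgeR and 263 by DESeq2. On day 14 they numbered 0, and 2 without the second set, 14 by DESeq2 and 0 to 1 with 1 library left out. On day 28 they numbered 1053, and 646 with a term for the second set, 2 with only the groups compared, 2183 by DESeq2 and 17 to 1162 with 1 library left out. Over the mean of days they numbered 681, and 415 without the second set, 442 with only the groups compared, 1639 by DESeq2 and 186 to 1082 with 1 library left out. The effect on day 14 minus day 7 had 1 call, and 27 by DESeq2. That on day 28 minus day 7 had 2, and 367 without the second set, 135 with only the groups compared, 678 by DESeq2 and 1 to 528 with 1 library left out. Naive day 7 against day 1 had 0 and 12 by DESeq2, day 14 against day 7 had 0 and 90, and the slope 0 and 1. The cause was not tested.

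No paired analysis was possible, because each library comes from a different pig and the sources used here do not give litters. Replicate numbers were assigned here, because the labels give none. Groups of 2 or 3 pigs, 2 for MI day 28, set the width of the intervals, and IGF2BP1 is limited by depth.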
